A study of Mus musculus with 5 samples.

Results

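The SMN complex is the assembly machine of the spliceosomal snRNPs, the small RNA-protein particles that remove introns. Its genes were described in forelimb buds of mouse embryos lacking Sost and Sostdc1. The list held 8 genes, Smn1, Gemin2, Gemin4, Gemin5, Gemin6, Gemin7, Gemin8 and Strap, and members were all probe sets whose only gene symbol in the platform annotation was one of these. That gave 12 probe sets of 6 genes, among 18193 genes with a probe set of their own and 45037 probe sets. Gemin4 and Gemin6 were represented only by probe sets that also carry other gene symbols, and these 2 probe sets were kept apart. The members were selected on a measured value, since the Smn1 difference had rank 9 from the lowest among the 18193 genes in these same arrays, and the values that follow therefore describe the difference between double mutants and wild type and carry no test of their own.

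The arrays were single-channel Affymetrix arrays of total RNA from forelimb buds at E11.5. The double mutant group held 2 embryos of genotype Sost-/-; Sostdc1-/- and the wild-type group 3 embryos, all on the C57Bl/6 background, with no treatment and with embryos kept separate. Sost and Sostdc1 encode related secreted antagonists of Wnt signalling, and the study's title ties them to digit number. How the null alleles were made is not given in the sources used here.

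In the cytoplasm the SMN complex loads a ring of Sm proteins onto each spliceosomal snRNA, and the finished core particle is then carried into the nucleus. SMN, the product of Smn1, oligomerises and forms the centre of the complex, and Gemin2 binds SMN and holds the Sm proteins. Gemin5 recognises the snRNA, Gemin8 joins the Gemin6 and Gemin7 pair to SMN, and Gemin4 works with the helicase Gemin3, encoded by Ddx20. Strap, also called unrip, is a WD-repeat protein at the edge of the complex. All cells need this pathway, and loss of the human SMN1 gene causes spinal muscular atrophy, a motor neuron disease.

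Smn1 has a pair of annotated transcription starts in RefSeq (GRCm38.p6), and its array signal is a single value over its transcripts. The 250 bases before each start are shown because Smn1 had the widest gap between the genotypes, together with those of Gemin2, which encodes the direct partner of SMN and had a difference near 0. They lie on the plus strand at chr13:100122955-100123204 and chr13:100124605-100124854 for Smn1, and at chr12:59013141-59013390 for Gemin2. Capitals mark CGGAAG or its reverse complement CTTCCG, a core sequence bound by ETS family transcription factors.
Smn1, first start: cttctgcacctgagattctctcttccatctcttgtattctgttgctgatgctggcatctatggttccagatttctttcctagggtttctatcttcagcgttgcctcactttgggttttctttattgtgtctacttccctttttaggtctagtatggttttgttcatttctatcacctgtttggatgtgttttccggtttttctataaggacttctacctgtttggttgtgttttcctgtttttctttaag
Smn1, second start: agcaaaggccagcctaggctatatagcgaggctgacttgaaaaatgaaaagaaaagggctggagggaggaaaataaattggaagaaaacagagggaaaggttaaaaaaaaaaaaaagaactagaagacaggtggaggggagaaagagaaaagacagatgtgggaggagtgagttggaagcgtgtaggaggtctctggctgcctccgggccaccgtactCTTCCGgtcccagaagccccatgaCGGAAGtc
Gemin2: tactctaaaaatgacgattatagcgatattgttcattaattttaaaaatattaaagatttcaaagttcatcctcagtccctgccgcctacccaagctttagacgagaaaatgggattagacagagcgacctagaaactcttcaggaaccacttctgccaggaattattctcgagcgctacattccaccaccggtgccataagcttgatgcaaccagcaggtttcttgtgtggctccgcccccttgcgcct
The motif occurred 2 times before the second Smn1 start and 0 times before the first Smn1 start and before the Gemin2 start. Both orientations were searched, and their letters do not overlap in the window shown. Of all 32851 start windows of this length, 13.6% held the motif, and 3 of the 10 windows of the 8 listed genes did, those of the second Smn1 start, Gemin4 and Gemin8. The Gemin8 window held the motif 2 times, as often as that of the second Smn1 start, and the Gemin4 window 1 time. CG dinucleotides numbered 2 and 6 in the Smn1 windows and 10 in that of Gemin2, against a median of 6 over all windows. The median over the 10 windows of the listed genes was 17. Each orientation of the motif holds a CG, and the windows compared for it were not matched for CG number. No binding was measured here, and which start was used cannot be read from the array.

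Levels below are log2 intensities, in which a difference of 1 is a doubling, and differences are double mutant minus wild type with limma's standard error. Levels of different probe sets are not comparable with each other. A probe set is said to be called where its adjusted p in the limma fit over all 45037 probe sets was under 0.05. By that rule 18.2% of all probe sets were called, 8.70% higher and 9.52% lower in double mutants, and in 45.2% of all probe sets the groups did not overlap. Of the 12 member probe sets 2 were called higher and 3 lower, and 7 were not called. With equal array medians 1 was called higher and 3 lower. A further fit had the mean of the Gapdh and Actb 3' minus 5' differences, described below, as a covariate. There 0 were called (limma, 5 at an unadjusted p under 0.05), as were 0 in the whole table. The groups did not overlap in 6 of the 12. The median difference over the 12 was −0.08, against −0.01 over all probe sets. All 12 had a mean level above 5.41, the median of all probe sets, whereas the shares over all probe sets include the dimmer ones. In a fit on only the 22518 probe sets above that median, 3204 were called higher and 4369 lower. Among the members that fit again called 2 higher and 3 lower.

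**Figure D1:**
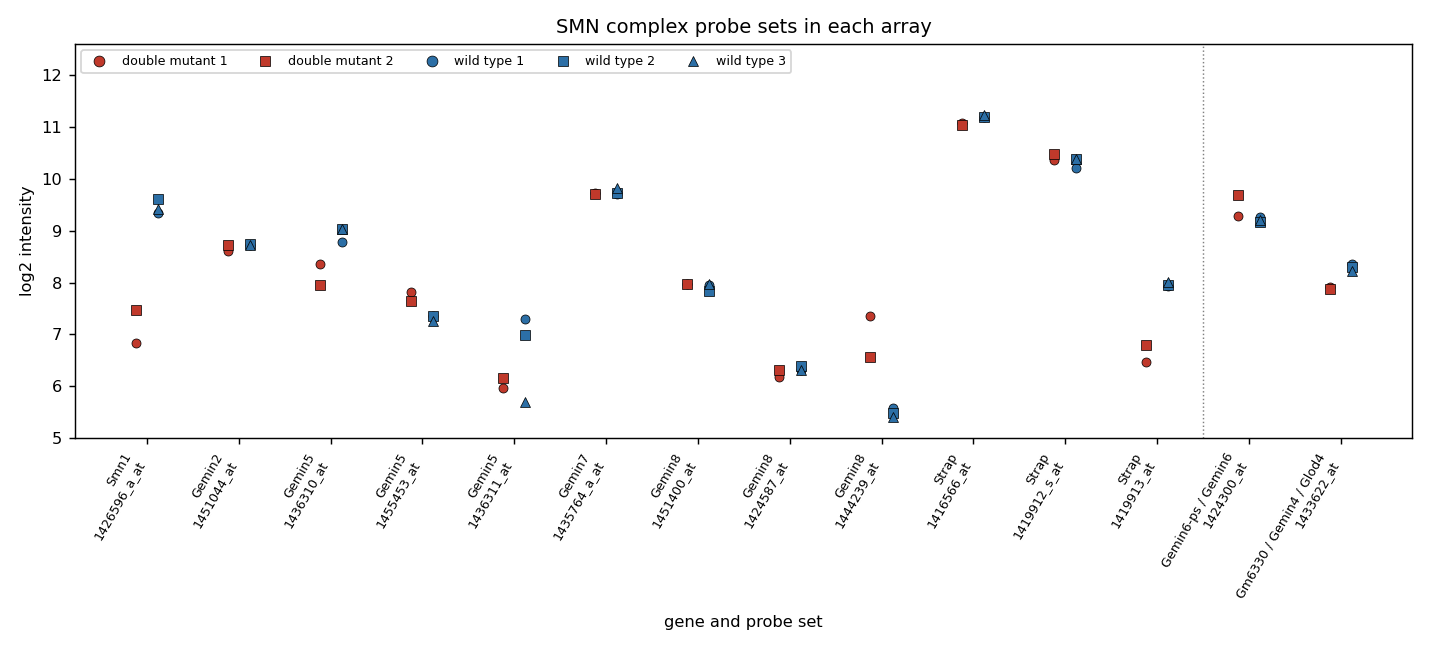
Log2 intensity (vertical axis) of the 12 SMN complex probe sets and, right of the dotted line, the 2 probe sets with several gene symbols, with 1 point per array (red double mutant, blue wild type, the symbol shape giving the replicate). Smn1 read 6.83 and 7.47 in the double mutant arrays, against 9.34 to 9.60 in wild type, while Gemin2 and Gemin7 nearly coincided.

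Smn1 itself was measured by a single probe set, 1426596_a_at, of a class designed to match alternative transcripts of a gene. Its log2 intensity was 6.83 and 7.47 in double mutant replicates 1 and 2, and 9.34, 9.60 and 9.42 in wild type replicates 1, 2 and 3. Both double mutant arrays lay well below all wild type arrays. The group means were 7.15 ± 0.45 (SD, n = 2) and 9.45 ± 0.13 (SD, n = 3), a difference of −2.30 ± 0.22 (SE), which is a 4.93-fold lower intensity. The 2 double mutant arrays differed from each other by 0.63, more than the wild type range of 0.26. The call was lost without double mutant replicate 1 (difference −1.99) or wild type replicate 2 (−2.23), and when the 3' minus 5' difference entered the model as a covariate (−2.11). Without wild type replicate 2, and with the covariate, 0 probe sets of the whole table were called. The fit without double mutant replicate 1 left 1 double mutant array, and its losses were likewise general. Losses in these fits therefore do not single out Smn1 or any probe set named below. No second Smn1 probe set was at hand to set beside 1426596_a_at.

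Gemin2, on 1451044_at, showed no such gap. It stood at 8.60 and 8.72 in the double mutant arrays and at 8.72, 8.75 and 8.72 in the wild type arrays, and the groups overlapped. The difference was −0.07 ± 0.06 (SE), with a 95% interval from −0.22 to 0.08. Gemin7, whose protein has an Sm-like fold, was also level on 1435764_a_at. Its values were 9.73 and 9.70 in the double mutant arrays, against 9.71, 9.73 and 9.82 in the wild type arrays, which is a difference of −0.04 ± 0.06 with an interval from −0.19 to 0.12. In neither gene did a double mutant array leave the wild type range by more than 0.12.

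Gemin5 was called in opposite directions on 2 of its 3 probe sets. On the brightest, 1436310_at, it read 8.35 and 7.95 in the double mutant arrays, against 8.79, 9.03 and 9.03 in wild type, and the groups did not overlap. The probe set was called lower, with a difference of −0.79 ± 0.16 (SE). On 1455453_at the values were 7.82 and 7.64 in double mutants against 7.35, 7.35 and 7.27 in wild type. That probe set was called higher, by 0.40 ± 0.08, again with no overlap, and with equal array medians it stood at 0.31 and was not called. Its call was kept without double mutant replicate 2 and lost without any 1 of the other 4 arrays. The third, 1436311_at, shares its design sequence with the first. It ranged from 5.70 to 7.29 within wild type alone, so its difference of −0.60 ± 0.53 lay within the spread of the arrays. The value of 5.70 was that of wild type replicate 3, and without that array 1436311_at stood at −1.08 and was called lower. The Gemin5 call on 1436310_at was lost when any 1 of the 5 arrays was left out (differences from −0.99 to −0.60).

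Gemin8 is the adaptor that ties Gemin6 and Gemin7 to SMN, and 2 of its 3 probe sets were not called. On 1451400_at both double mutant arrays stood at 7.97 and the wild type arrays at 7.95, 7.84 and 7.97. The difference was 0.05 ± 0.06 (SE), with an interval from −0.12 to 0.21, and it turned to −0.04 with equal array medians. On 1424587_at, made from the same design sequence, the difference was −0.09 ± 0.06. The dimmest probe set, 1444239_at, from another design sequence, read 7.36 and 6.56 in the double mutant arrays, against 5.57, 5.48 and 5.41 in wild type. It was called higher by 1.48 ± 0.26, the widest rise among the member probe sets. Its wild type level lay next to the median of all probe sets, and the double mutant arrays differed from each other by 0.80. Without double mutant replicate 1 or any 1 of the wild type arrays this call was lost (differences from 1.08 to 1.52).

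Strap also split by probe set. On the brightest, 1416566_at, it read 11.07 and 11.04 in the double mutant arrays, against 11.19, 11.19 and 11.23 in wild type. The groups did not overlap, but the difference of −0.15 ± 0.05 (SE) was not called, with a 95% interval from −0.27 to −0.03. On 1419912_s_at, of a class that can match several transcripts, values of 10.36 and 10.47 in double mutants overlapped with 10.20, 10.39 and 10.39 in wild type (difference 0.09 ± 0.08). On 1419913_at, from the same design sequence as 1419912_s_at, the values were 6.46 and 6.80 in the double mutant arrays, against 7.93, 7.95 and 8.01 in wild type. This dimmest Strap probe set was called lower (−1.34 ± 0.12). That call was lost without double mutant replicate 1 or without wild type replicate 2. It was also lost with the replicate number as a block (−1.31) or with the 3' minus 5' covariate.

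**Figure D2:**
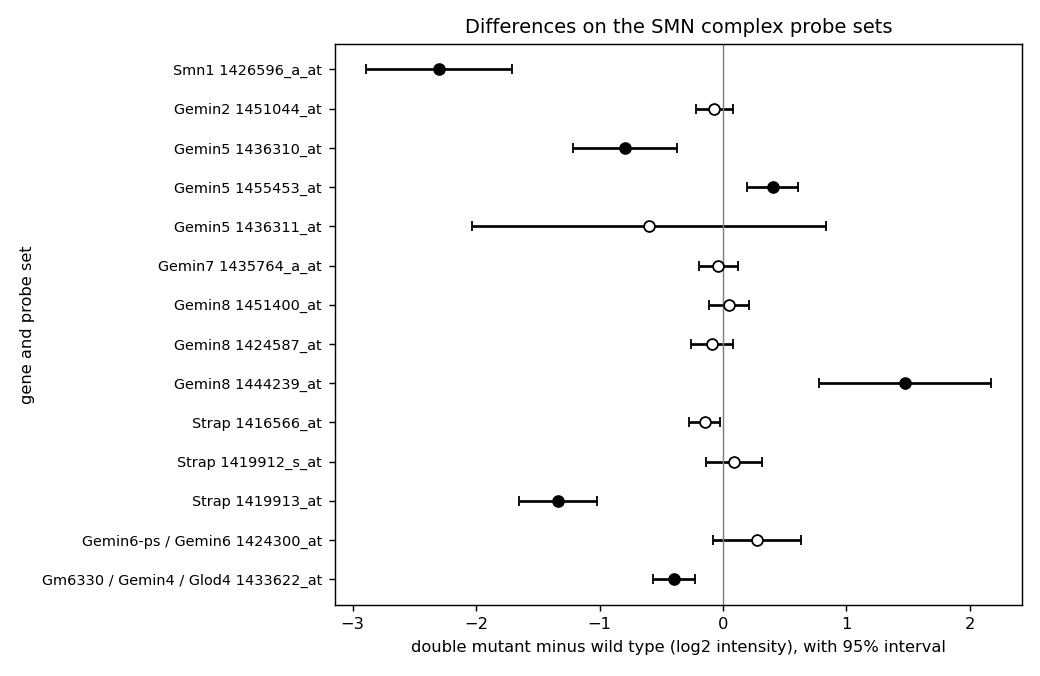
Difference between double mutant and wild type (horizontal axis, log2 intensity) for each member probe set and for the 2 probe sets with several symbols, with bars for the 95% interval of limma's fit. Filled points were called, and Gemin5, Gemin8 and Strap each have probe sets on different sides of 0.

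Neither Gemin4 nor Gemin6 could be read alone. The probe set 1433622_at carries the symbols Gemin4, Glod4 and Gm6330. It read 7.92 and 7.87 in the double mutant arrays, against 8.36, 8.31 and 8.21 in wild type, and was called lower (−0.40 ± 0.06, SE). This call was kept without wild type replicate 3, and lost without any 1 of the other 4 arrays (differences from −0.42 to −0.36). It was also lost with the replicate number as a block (−0.44) or with the 3' minus 5' covariate (−0.30). The probe set 1424300_at carries Gemin6 and the pseudogene Gemin6-ps. It read 9.29 and 9.68 in the double mutant arrays, against 9.26, 9.16 and 9.20 in the wild type arrays, which is a difference of 0.28 ± 0.13 that was not called. These signals cannot be assigned to a single gene.

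Taking the brightest probe set of each of the 6 genes, Smn1 and Gemin5 were called lower, none was called higher and 4 were not called. On the same basis 14.7% of all 18193 genes were called, 6.56% higher and 8.14% lower. That share includes genes with a mean level under 5.41, whereas the 6 members all lay over it. Apart from Smn1, the differences of the other 5 genes lay between −0.79 and 0.05, with a median of −0.07. The median over all genes was −0.02. Of the 6 remaining, dimmer probe sets 2 were called higher and 1 lower, beside 18.2% called of all probe sets. All 6 lay above the median level, whereas that share includes probe sets below it, so the 2 are not matched for level.

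The split between probe sets of the same gene was visible array by array. The log2 gap between 1416566_at and 1419913_at of Strap was 4.61 and 4.24 in double mutants and between 3.22 and 3.26 in wild type. For Gemin5 the gap between 1436310_at and 1455453_at was 0.53 and 0.32 in double mutants against 1.44, 1.67 and 1.76 in wild type. For Gemin8 the gap between 1451400_at and 1444239_at was 0.60 and 1.40 in double mutants against 2.36 to 2.56 in wild type. In each of these pairs the genotypes did not overlap, so the reported change of the gene depends on which probe set is read. The other Strap pair, 1416566_at and 1419912_s_at, ran the opposite way, with gaps of 0.71 and 0.57 in double mutants against 0.99, 0.81 and 0.85 in wild type, again without overlap. In the other Gemin8 pair, 1451400_at and 1424587_at, the genotypes met at 1.65, and in the other Gemin5 pair they overlapped.

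**Figure D3:**
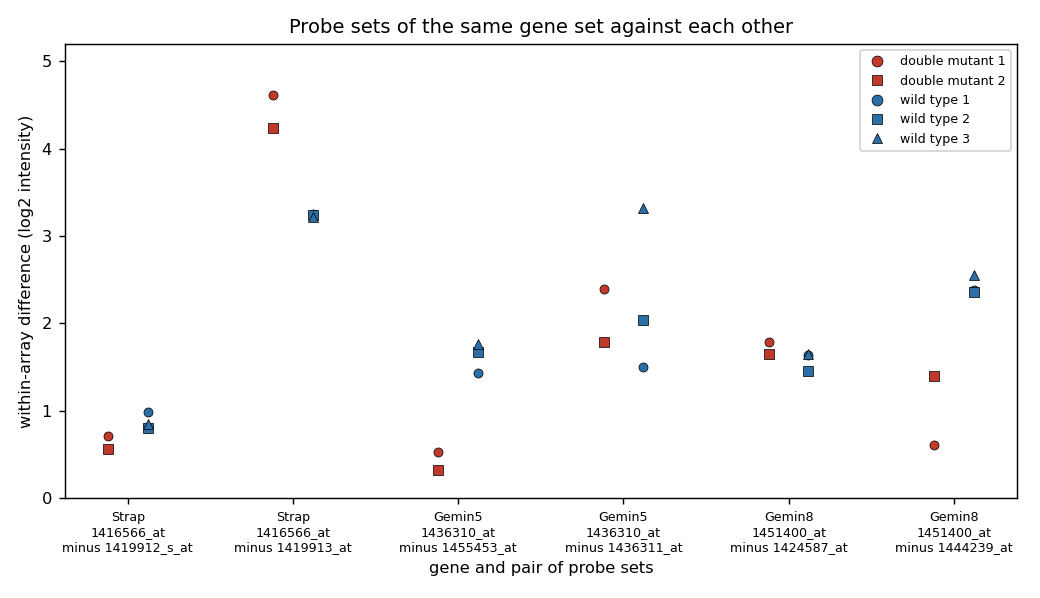
Log2 intensity of the brightest probe set minus that of another probe set of the same gene (vertical axis), with 1 point per array. For Strap 1419913_at, Gemin5 1455453_at and Gemin8 1444239_at the double mutant arrays (red) stand apart from the wild type arrays (blue).

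Exact repeats of a value across arrays were common. In 7 of the 12 member probe sets at least 2 arrays held the same intensity, as they did in 21842 of all 45037 probe sets. Gemin2 held 1 value in double mutant replicate 2 and wild type replicates 1 and 3. Gemin8 on 1451400_at held 1 value in both double mutants and wild type replicate 3, which gives an SD of 0 in the double mutant group. Such repeats make the spread between arrays look narrower, and the step that made them is not given in the sources used here. Smn1 on 1426596_a_at had no repeated value.

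Of 3 measures of the preparation, 2 separated the genotypes in the same arrays. Dap, a spike-in put into the RNA before it was labelled, read 6.90 and 7.28 in the double mutant arrays, against 3.31, 3.23 and 3.36 in wild type. Trpn, an absent control not counted among the 3 measures, read 3.06 and 3.14 in double mutants and 3.06, 3.10 and 3.05 in wild type. The wild type Dap values thus lay near those of an absent control. The 3' minus 5' difference of the Gapdh control probe sets was 0.27 and 0.16 in double mutants and −0.14, −0.10 and −0.06 in wild type (exact permutation test over 10 splits, two-sided p = 0.1, the smallest possible). The same difference for Actb was 0.65 and 0.56 in double mutants and 0.20, 0.24 and 0.68 in wild type, and the groups overlapped (exact permutation p = 0.4). The 3' minus 5' covariate was the mean of the Gapdh and Actb differences in each array. It includes the Gapdh difference, which separated the genotypes, so a call lost with it cannot be read as an effect of 3' bias. In all differences reported for the complex, genotype and preparation cannot be told apart.

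Cell type markers were set beside these values. All 7 limb mesenchyme markers were measured, with mean levels from 9.91 upwards, and 0 were called. Of 7 ectoderm markers 4 were called higher, and their summed level was 12.26 to 12.27 (log2) in double mutants and 11.55 to 11.68 in wild type. Of 5 endothelial markers 2 were called lower (summed level 9.52 to 9.73 against 10.07 to 10.23), of 5 measured erythroid markers 2 were lower (15.43 to 15.59 against 15.61 to 15.71), and of 5 muscle progenitor markers 1 was lower (10.17 to 10.36 against 10.52 to 10.65). The endothelial calls were Pecam1 (−1.98) and Tie1 (−0.96), while Cdh5 (−0.06), Kdr (−0.03) and Tek (−0.06) were nearly level. The erythroid calls were Alas2 (−1.89) and Hba-x (−0.45), while Hbb-y (−0.01), Hbb-bh1 (−0.02) and the dim Hba-a1 (0.17, mean level 3.61) were not called. In the muscle list Myod1 was called (−1.10), while Lbx1 stood at −0.31 and Pax3 at 0.79, neither called. The sums add intensities of different probe sets, so they can follow a single marker and do not count cells. None of the 5 macrophage, 3 neural crest and 5 neuronal markers was called. The neuronal sum was 8.38 to 8.42 in double mutants and 8.15 to 8.25 in wild type, the macrophage sum 9.43 to 9.68 and 9.82 to 9.95, and the neural crest sum 9.28 to 9.72 and 9.34 to 9.63. Their part in the Smn1 and Gemin5 differences was not tested. In whole tissue, fewer cells of a type and less RNA per cell cannot be told apart.

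Around the complex, 41 of 46 listed genes of snRNP assembly had a probe set of their own, and on the brightest one 3 were called higher, 7 lower and 31 were not called. The background over all genes was 14.7% called, and the median difference over the 41 was 0.02 against −0.02 over all genes. All 41 had a mean level over 5.41, as did 11537 of the 18193 genes, so the 41 and this background are not matched for level. The fit on only the 22518 brighter probe sets called 3204 of them higher and 4369 lower. Among the 41 genes that fit again called 3 higher and 7 lower. With a mean over all probe sets of each gene, 6 were called higher and 8 lower, and with equal array medians 1 and 7. Without double mutant replicate 1 or without wild type replicate 2 none of the 10 calls was kept, and 0 probe sets of the whole table were called (limma, 14059 and 11115 at an unadjusted p under 0.05). Ddx20, the Gemin3 helicase of the complex itself, was not called. It read 9.46 and 9.45 in the double mutant arrays, against 9.23, 9.35 and 9.35 in the wild type arrays, which is a difference of 0.14 ± 0.06 (SE, limma adjusted p = 0.198). Smndc1, an SMN-related splicing factor, stood at −0.18 ± 0.10 on its brightest probe set, while a dimmer one was called higher (1.85 ± 0.12).

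The Sm proteins, the cargo of the complex, had no calls on their brightest probe sets. Of the 6 measured, 0 were called by limma, with 2 at an unadjusted p under 0.05 and differences from −0.05 for Snrpn to 0.29 for Snrpe. A dimmer Snrpd3 probe set was called lower (−0.96 ± 0.07), while another stood at 0.39 ± 0.09 and was not called.

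The methylosome, which methylates Sm proteins before SMN receives them, had the most calls among these lists, 3 of 5. Prmt5, the arginine methyltransferase, read 9.84 and 9.79 in the double mutant arrays, against 10.67, 10.40 and 10.38 in wild type. The difference was −0.66 ± 0.11 (SE, limma adjusted p = 0.0262). Its partner Wdr77 stood at 10.30 and 10.31 against 10.88, 10.76 and 10.81 (−0.51 ± 0.06, adjusted p = 0.0120), and a dimmer Wdr77 probe set was also called lower (−2.55 ± 0.29) while the third stood at 0.23 and was not called. Riok1, an adaptor of Prmt5, rose by 0.56 ± 0.10 (SE, adjusted p = 0.0280), and 2 of its 4 dimmer probe sets were also called higher (1.50 and 1.37). Clns1a and Coprs were not called on their brightest probe sets, and a dimmer Clns1a probe set was called lower (−0.79 ± 0.13).

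Among genes of snRNA export, capping and import, Ncbp1, a subunit of the nuclear cap-binding complex, rose by 0.41 ± 0.05 (SE, limma adjusted p = 0.0147), and with equal array medians it stood at 0.32 and was not called. Phax, the export adaptor for snRNA, was lower, at −0.26 ± 0.06 (adjusted p = 0.0496), a call lost with quantile normalization (−0.24) and with array weights (−0.27). The other 5, Ncbp2, Xpo1, Tgs1, Snupn and Kpnb1, were not called on their brightest probe sets. Dimmer probe sets of Kpnb1 were called both lower (−3.29 ± 0.26) and higher (0.23 ± 0.05). Dimmer probe sets of Tgs1 (1.28 and 1.92) and Xpo1 (0.37) were called higher and 1 of Ncbp2 lower (−0.96), while those of Snupn were not called. The Tgs1 probe sets 1450401_at, 1450400_at and 1421905_at, brighter than those called, stood at −0.01, −0.22 and −0.26 and were not called. The Tgs1 value of 1.28 came from 1439710_at, whose mean level of 4.45 lay below the median of all probe sets.

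Coil, the scaffold of Cajal bodies where new snRNPs mature, rose by 0.30 ± 0.05 (SE, limma adjusted p = 0.0301), the 1 call of 4 genes in that list, and with equal array medians it stood at 0.21 and was not called. A dimmer probe set of Nolc1, in the same list, was called lower (−1.40 ± 0.21). Lsm11, a subunit of the U7 particle that processes histone RNA, was lower (−0.33 ± 0.06, adjusted p = 0.0382), while its second probe set stood at 0.28 and was not called. The Lsm11 call was lost with quantile normalization (−0.27) and with an intensity trend (−0.33). Snrpc, a U1 protein, was lower at −0.56 ± 0.10 (adjusted p = 0.0291), 1 of 4 measured in the U1 and U2 list.

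Lsm2, of the ring that binds U6 snRNA, showed the largest difference among the 41 genes on their brightest probe sets. It read 8.38 and 9.16 in the double mutant arrays, against 10.19, 10.28 and 10.25 in wild type. Its difference was −1.47 ± 0.25 (SE, limma adjusted p = 0.0283), and it was the 1 call of 6 in its list, where a dimmer Lsm6 probe set was also called lower (−0.36 ± 0.07). Tmem41b, the mammalian counterpart of the fly gene stasimon, a target of SMN-dependent splicing in flies, was lower on its brightest probe set (−0.55 ± 0.08, adjusted p = 0.0207), but another was called higher (0.36 ± 0.07). It was the 1 call of 5 among partners and modifiers of SMN. Over the 58 other probe sets of these genes 8 were called higher and 7 lower, which is 25.9%, against 18.2% of all probe sets. Of the 58, 48 lay above the median level, so the 2 shares are not matched for level.

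**Figure D4:**
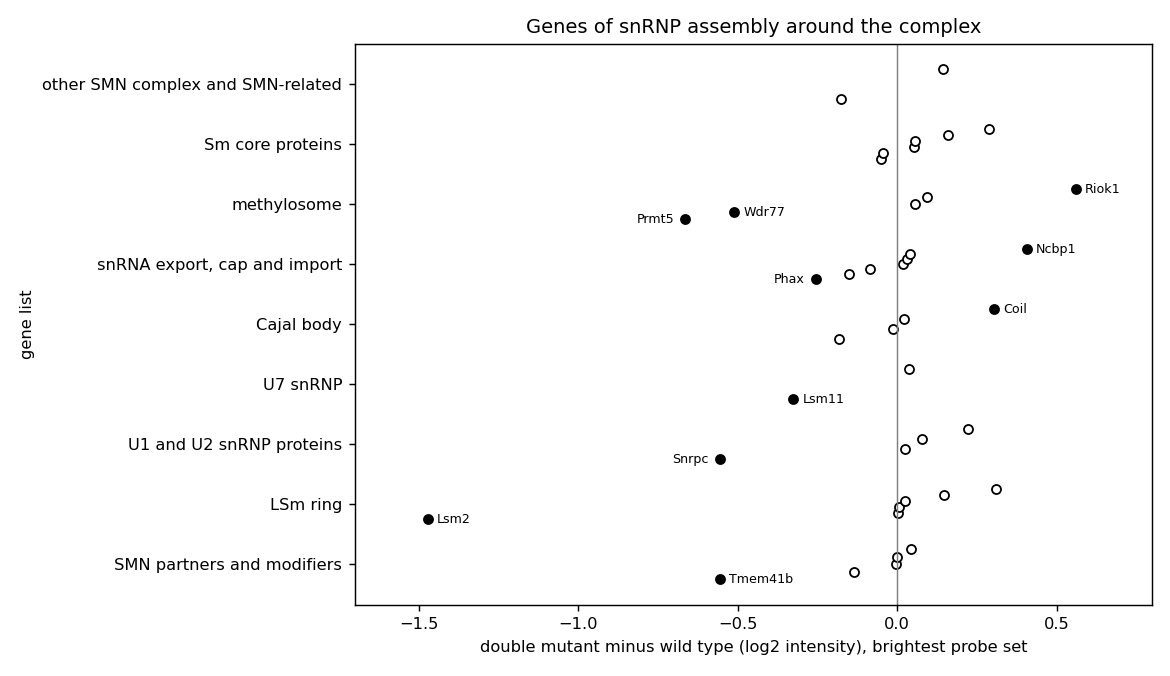
Difference between double mutant and wild type (horizontal axis, log2 intensity, brightest probe set) for the 41 measured genes of snRNP assembly in 9 lists. Filled, named points were called, and most of the others lie within 0.3 of 0.

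The genes whose level ran most like that of Smn1 were found by the Euclidean distance between log2 profiles over the 5 arrays, each centred on its own mean. The 5 nearest of the other genes were Mlf2 (distance 0.19), Sdr39u1 (0.25), Scpep1 (0.26), Ctse (0.28) and Osr2 (0.31). Osr2 encodes a zinc finger transcription factor of limb and craniofacial mesenchyme, Ctse the protease cathepsin E, and Scpep1 a serine carboxypeptidase. Mlf2 read 9.08 and 9.55 in the double mutant arrays, against 11.60, 11.68 and 11.67 in wild type. In all 5 genes, as in Smn1, double mutant replicate 1 was the lowest array and replicate 2 the next. A closeness of this kind over 5 arrays of 2 groups follows mainly from a like difference between the groups. Of the 4 of these genes that had another probe set, 0 were called on it, with differences from −1.94 for Ctse to −0.02 for Sdr39u1.

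**Figure D5:**
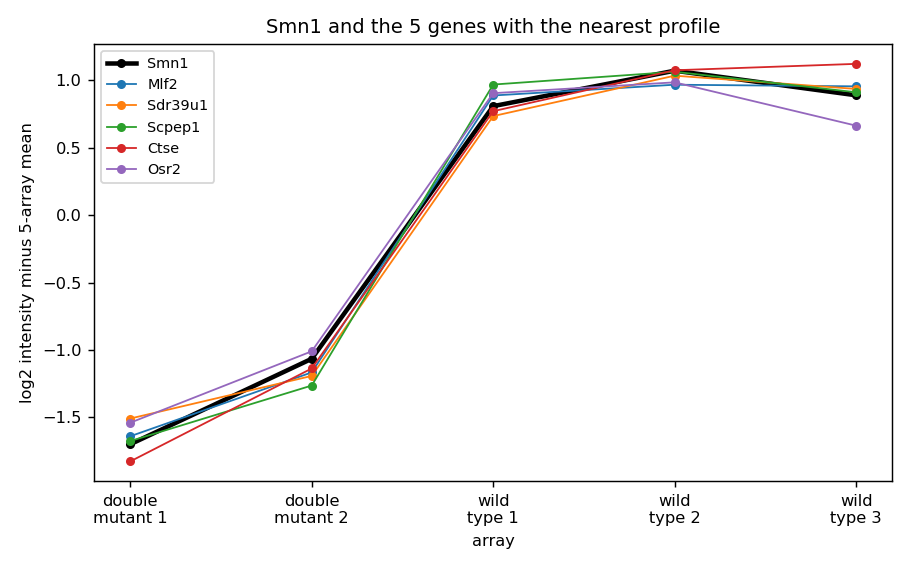
Log2 intensity minus the mean of the 5 arrays (vertical axis) in each array, with a line joining the values of each gene. Smn1 (black) and the 5 genes with the nearest profile are lowest in double mutant replicate 1 and stand between 0.66 and 1.12 in the wild type arrays.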

How the data were processed

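The deposited values were linear intensities, 1 per probe set and array. RMA and limma are named per the submitters' processing notes, with no version, role or order, and the settings are not given in the sources used here. Labelling was by an Affymetrix kit with repeated amplification, per the labels' protocols, and favours the 3' end of transcripts. Array medians were 44.4 and 42.1 in double mutants and 41.7, 40.7 and 39.4 in wild type, so both double mutant medians were the higher ones. No further normalization was applied before log2. With equal array medians, 1 of the alternatives below, 3776 of all probe sets were called higher and 5849 lower. Of 45101 probe sets 64 controls were left out. The comparison used limma (3.58.1, under R 4.3.3) with 1 mean per genotype, on 45037 probe sets with Benjamini-Hochberg adjustment over all of them, and no filter. Summaries by gene use its brightest probe set over the 5 arrays.

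Members, lists and tests were chosen with earlier results of these data known. The rule for naming took every member probe set, Ddx20, the called pathway genes (at most 4 per direction and list) and the 5 genes nearest to Smn1. Dimmer probe sets named beside them were picked with their values in view. The lists were mesenchyme, ectoderm, muscle, endothelial, erythroid, macrophage, neural crest and neuronal markers and the 9 pathway lists. Alternatives were 2 normalizations, a level filter, an intensity trend, array weights, a replicate block, a 3' minus 5' covariate and each array left out. Sequences are from RefSeq (GRCm38.p6). With 5 arrays, their number limits the precision.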

Additional observations from a re-analysis of the deposited data

Results flagged for a closer look

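The poly-A spike-in Dap, which comes from no mouse gene and lies outside the comparison, had a mean log2 intensity of 7.09 in double mutants against 3.30 in wild type.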

How the results depend on the processing

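Smn1 kept its direction under every alternative run, and lost its call with the 3' minus 5' covariate (−2.11) and on leaving out double mutant replicate 1 or else wild type replicate 2, with differences from −2.62 to −1.99 over the 5 arrays left out. Member probe sets called, 2 higher and 3 lower, became 1 higher with equal array medians, 0 and 1 with a replicate block, and 0 and 0 with the covariate, and ranged from 0 to 2 higher and from 0 to 3 lower with 1 array left out. Pathway genes called, 3 higher and 7 lower, became 1 higher with equal array medians, 6 higher by the mean of all probe sets, 0 and 0 with the block or the covariate, and 0 to 2 higher and 0 to 3 lower with 1 array left out. All probe sets called, 3919 higher and 4287 lower, became 1022 and 1329 with the block and 0 and 0 with the covariate (limma, 9633 at an unadjusted p under 0.05). With 1 array left out they ranged from 0 to 1963 higher and from 0 to 3198 lower, with 0 calls in all without double mutant replicate 1 or wild type replicate 2 (limma, 14059 and 11115 at an unadjusted p under 0.05, 6 of the 12 members among them each time). Those fits had fewer residual degrees of freedom. Where 1 double mutant array was left, it was assumed to vary like the wild type arrays. Sign changes occurred on 1451400_at of Gemin8 (−0.044 with equal array medians, −0.0063 with the covariate) and on 1436311_at of Gemin5 (0.81 with the covariate), none of them called. Array numbers 1 and 2 are shared between the groups, and deviations correlated at 0.09 and 0.12 over 2 pairs. With 2 double mutant arrays, the crossed pairs must give the same values with opposite sign. These correlations therefore cannot show whether the numbers pair the samples, and the main fit did not pair them.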
